A study of Homo sapiens with 18 samples.

Results

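The comparison set the TRβ1 pool against the TRα1 pool of HepG2, a long-established cell line from a human liver cancer, when no thyroid hormone had been added. It used the 3 vehicle arrays of each pool, 6 of the 18 arrays of the series, joined into 3 pairs by the replicate number in their titles. Cells of the first pool carried an introduced plasmid for thyroid hormone receptor TRβ1 (12 clones combined), and cells of the second one for TRα1 (6 clones combined). Another pool of 11 clones carried the empty plasmid and served as the control. All clones had been selected with G418 and screened for the plasmid by PCR, and all 3 pools kept the receptors that HepG2 cells make themselves. Ethanol, the vehicle, was given for 6 h, and the serum in the medium had been stripped of hormones. The other arrays had received 100 nM T3 (triiodothyronine, the active hormone) for the same time. Per the series' design text, the 3 arrays of a group came from independent biological repeats. There was 1 pool per construct, so the receptor isoform, the clones that made up a pool and the amount of receptor in it cannot be told apart.

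Thyroid hormone receptors are nuclear receptors that sit on DNA with or without their ligand, mostly as a heterodimer with a retinoid X receptor. Without hormone they recruit corepressor complexes to many target genes, and T3 exchanges these for coactivators. TRβ1 is the main isoform of the liver, whereas TRα1 predominates in heart, bone and brain. Levels below are log2 values after RMA (a background correction, normalization and probe summary for Affymetrix arrays), and a difference is the TRβ1 pool minus the TRα1 pool, so that 1 unit is 2-fold. A feature was called where limma's test, with the replicate number as a block, gave a Benjamini-Hochberg adjusted p under 0.05 over the 20546 features with a gene symbol. Errors are standard errors (SE) of that model.

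The pools differed in a small set of genes. Of the 20546 features, 111 passed (0.540%), 60 higher in the TRβ1 pool (0.292%) and 51 lower (0.248%). They included 57 genes that were higher and 49 that were lower, at 1 feature per gene. The size of the called differences ran from 0.34 to 1.43 with a median of 0.58, and 6 reached 2-fold. The 3 pairs had the same sign in all 111, against 30.4% of all features, and the 3 arrays of one pool did not overlap those of the other in 89, against 5.47% of all features. Those features were called on these same arrays, so both shares follow in large part from the choice. The block decided these calls. Without it limma called no feature, and the smallest adjusted p was 0.0746. Before adjustment 593 features were under 0.05 then, and 1584 with the block, where 1027 would be expected by chance. With 1 array left out, the count fell to 86, 48 and 55 without TRα1 array 1, 2 and 3 in turn, and to 53, 62 and 41 without TRβ1 array 1, 2 and 3. With all arrays of a replicate number left out, over all groups, it was 2, 7 and 1. A fit to the 6 vehicle arrays of both pools alone called 20 features, 15 of them among the 111.

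**Figure D1:**
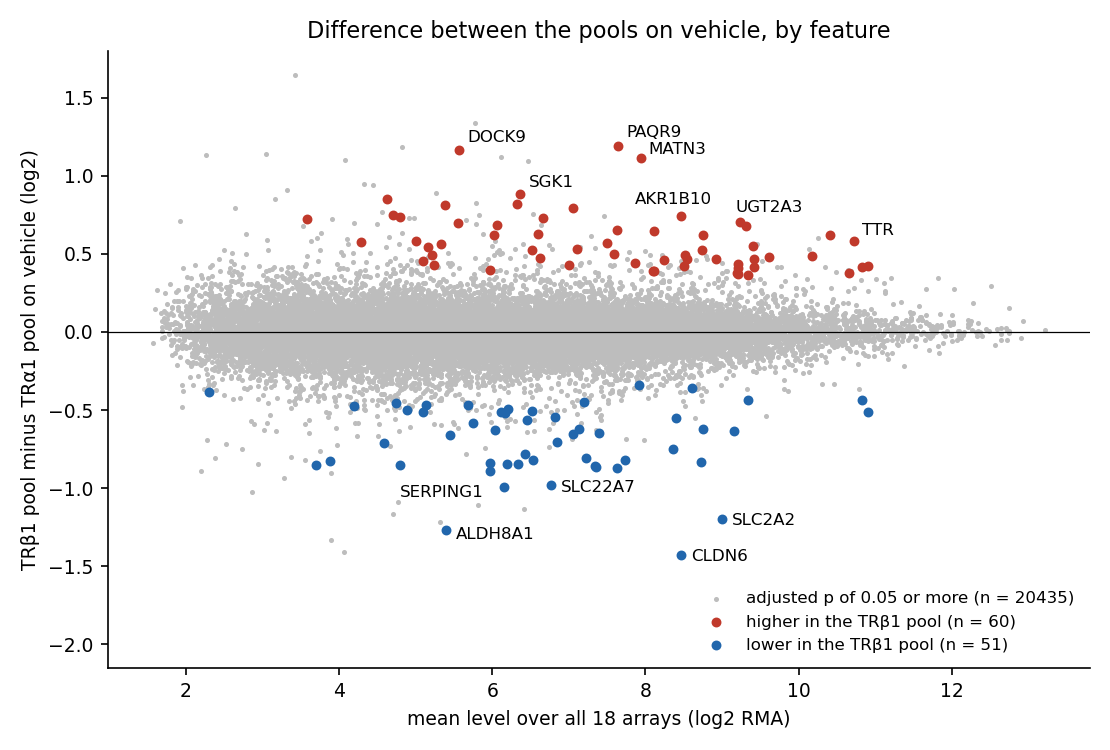
Difference between the TRβ1 and TRα1 pools on vehicle (log2, vertical axis) against the mean level over all 18 arrays (log2 RMA, horizontal axis), 1 point per feature. The 60 features called higher and the 51 called lower lie over most of the range of levels, with CLDN6 and PAQR9 the largest called in each direction.

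The introduced receptors were looked at first. THRA, the gene of TRα1, read 7.39, 7.55 and 7.55 in the TRα1 pool and 6.91, 7.08 and 7.22 in the TRβ1 pool, and 7.06 ± 0.12 (SD, n = 3) in the control pool. Every TRα1 array lay above every TRβ1 array, but the difference of -0.43 ± 0.13 did not pass (adjusted p = 0.270). THRB, the gene of TRβ1, read 6.97, 7.01 and 6.88 in the TRβ1 pool against 6.58, 6.77 and 6.87 in the TRα1 pool. These groups were barely separate, and the difference of 0.21 ± 0.11 did not pass either (adjusted p = 0.761). On T3 the THRA difference was -0.95 and passed (adjusted p = 0.00382). How much of each feature lies in the introduced sequence was not given, so these levels do not measure the amount of receptor. None of the 5 measured receptor and RXR genes, 9 corepressor complex genes or 13 nuclear receptor coactivator genes was called, and the coactivators ranged from -0.36 to 0.06.

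Among the genes higher in the TRβ1 pool, PAQR9, a membrane protein of the progestin and adipoQ receptor family, differed most. It read 8.32, 8.34 and 7.73 in the TRβ1 pool and 7.12, 7.16 and 6.53 in the TRα1 pool, a difference of 1.19 ± 0.10 (adjusted p = 1.4e-04). The pools did not overlap, and the third array was the lowest in both. DOCK9, an exchange factor for the small GTPase CDC42, read 5.66, 5.76 and 6.12 against 4.56, 4.62 and 4.88, a difference of 1.16 ± 0.17 (adjusted p = 0.00394). MATN3, a matrilin of cartilage matrix, read 9.33, 8.63 and 8.02 against 8.12, 7.74 and 6.78. Its pools overlapped, with the first array the highest and the third the lowest in both, and within each pair the TRβ1 array was higher, by 1.11 ± 0.15 on average (adjusted p = 0.00309).

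SGK1, a kinase induced by serum and glucocorticoids that promotes sodium uptake, read 6.69, 6.28 and 6.38 in the TRβ1 pool and between 5.24 and 5.96 in the TRα1 pool. The difference was 0.88 ± 0.11 (adjusted p = 0.00191), with no overlap. ATP10A, a phospholipid flippase, was higher by 0.81 ± 0.11 and SCN1A, a sodium channel subunit, by 0.75 ± 0.13. RBM24, an RNA-binding splicing regulator, was higher by 0.85 ± 0.12 and PTPRN2, a secretory granule protein, by 0.73 ± 0.08. The others of the 15 largest were PROM1 (CD133, a surface marker of progenitor cells), the actin-binding CAP2, the aldo-keto reductase AKR1B10, the zinc finger gene ZNF558, the protocadherin PCDHB5, the glucuronosyltransferase UGT2A3 and the endocytic EHD3, at 0.70 to 0.82. Of these, the AKR1B10 arrays overlapped. A further feature of UGT2A3 differed by 0.74 and did not pass (adjusted p = 0.0724). RBM24, SCN1A, ZNF558 and PCDHB5 read low, with means below the lowest array median of 5.31 in both pools. PCDHB5 was lowest, at 4.03 in the TRβ1 pool and 3.31 in the TRα1 pool.

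CLDN6, a tight junction protein of embryonic epithelia, had the largest difference among the called genes that were lower in the TRβ1 pool. It read 8.05, 8.70 and 7.29 in the TRβ1 pool against 9.37, 9.81 and 9.15, a difference of -1.43 ± 0.20 (adjusted p = 0.00278). The pools did not overlap, and the control pool, at 7.84 ± 0.13 (SD, n = 3), lay beside the TRβ1 pool. ALDH8A1, an aldehyde dehydrogenase, read 4.92, 4.97 and 5.04 against 6.71, 6.13 and 5.90, a difference of -1.27 ± 0.17 (adjusted p = 0.00191). SLC2A2, the hepatocyte glucose transporter GLUT2, read 8.39, 8.57 and 8.79 against 9.68, 9.71 and 9.96, a difference of -1.20 ± 0.13 (adjusted p = 0.00115).

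SLC22A7, the organic anion transporter OAT2, read 6.66, 6.41 and 6.70 against 7.72, 7.30 and 7.70, a difference of -0.98 ± 0.11 (adjusted p = 0.00115). SERPING1, the inhibitor of the complement protease C1, read 6.17, 5.70 and 5.71 against 7.10, 6.73 and 6.72, a difference of -0.99 ± 0.12 (adjusted p = 0.00118). ENPP2 (autotaxin), a secreted enzyme that makes lysophosphatidic acid, read 7.11, 7.01 and 7.35 against 8.04, 7.87 and 8.14. In each of these 3 genes every TRβ1 array lay below every TRα1 array. The remaining genes of the 15 largest were at -0.89 to -0.83: the ferric reductase CYBRD1, the matrix protein NPNT, the arylsulfatase ARSI, the phospholipase PLCE1, the desmosomal DSC3, the nuclear protein CDCA7L, the betaine transporter SLC6A12, the betaine-homocysteine methyltransferase BHMT and the haemoglobin-binding HP. PLCE1 read lowest of these, with means of 3.49 in the TRβ1 pool and 4.34 in the TRα1 pool. HP overlapped between the pools, with a TRα1 array at 10.40 and the others of that pool at 8.21 and 9.04. BHMT2, the neighbouring gene to BHMT and chosen after its values were seen, was lower by a difference of -0.65 ± 0.10 (adjusted p = 0.00834).

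**Figure D2:**
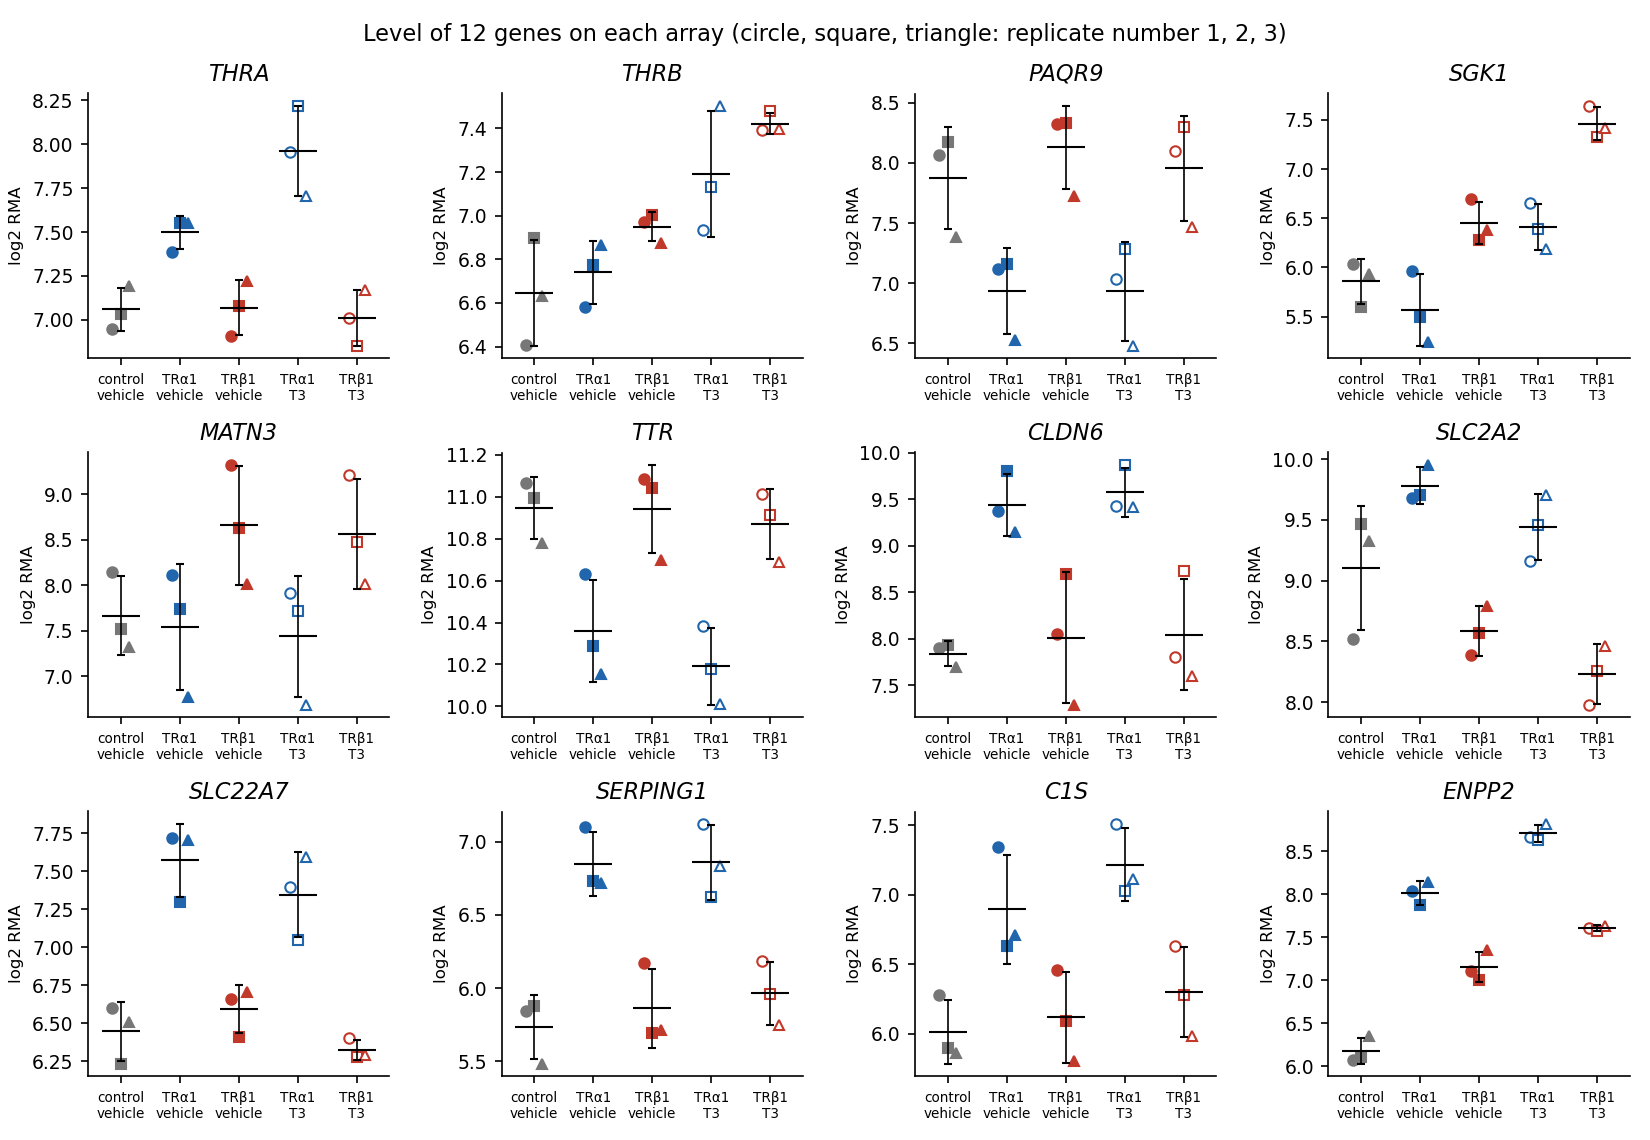
Level of 12 genes on each array (log2 RMA), by pool and treatment, with filled symbols for vehicle, open symbols for T3, horizontal bars for group means and error bars for 1 SD of 3 arrays. On vehicle the TRβ1 arrays lie above the TRα1 arrays for PAQR9, SGK1 and TTR and below them for CLDN6, SLC2A2, SLC22A7, SERPING1, C1S and ENPP2, whereas the MATN3 arrays overlap.

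Many calls were lost when 1 array was left out. Of the 49 named genes that were called, 22 passed on the full set and with each of the 6 vehicle arrays of both pools left out in turn, among them PAQR9, DOCK9, MATN3, SGK1, ATP10A, RBM24, PTPRN2, CLDN6, ALDH8A1, SLC2A2, SERPING1, SLC22A7, CYBRD1, ENPP2, PLCE1 and CDCA7L. By contrast HP, NPNT, DSC3, SLC2A1, WNT11 and CADM1 passed on the full set alone.

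The same genes were then read in lists of known function. The 52 lists held 979 measured genes, of which 14 were called higher and 13 lower, and 31 lists had no called member. That was 2.76% of the list genes, against 0.540% of all features (0.292% higher and 0.248% lower), and the lists were chosen with earlier results known, so the share is a description. The median difference over all features was -0.01. Textbook thyroid hormone targets had 1 gene higher (SLC2A1, the glucose transporter GLUT1, by 0.43 ± 0.08) and 1 lower (SLC2A2) of 31 measured, with a median of -0.01. Both are also the members called among 27 measured genes of gluconeogenesis, glycolysis and glycogen, whose median was -0.02. Neither the 19 genes of fatty acid oxidation nor the 17 of cholesterol synthesis and uptake had a called member.

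Complement and acute phase genes had 2 members lower and none higher of 25, with a median of -0.10, where 0.248% of all features were called lower. C1S, a protease of the classical complement pathway, read 6.46, 6.09 and 5.81 in the TRβ1 pool against 7.35, 6.63 and 6.71 in the TRα1 pool, a difference of -0.78 ± 0.09 (adjusted p = 0.00140), without overlap. HAMP, the iron hormone hepcidin, differed by -0.81 ± 0.12 (adjusted p = 0.00503), but its pools overlapped, since both first arrays were more than 1 unit above the others. C1R, the partner protease of C1S, differed by -0.30 ± 0.10 and did not pass (adjusted p = 0.357). SERPING1 was not on this list.

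Hepatocyte secreted proteins had 1 member higher and 2 lower of 20, where 0.292% of all features were called higher and 0.248% lower. TTR (transthyretin), a carrier of thyroid hormone in plasma, read 11.08, 11.04 and 10.70 against 10.63, 10.29 and 10.16, a difference of 0.58 ± 0.08 (adjusted p = 0.00191). The pools did not overlap. ITIH4, a heavy chain of the inter-alpha-trypsin inhibitor family, differed by -0.58 ± 0.08 (adjusted p = 0.00247), and HP was the other lower member. Of the hepatocyte markers TTR alone was called of 8, and ALB and AFP, the main secreted proteins of adult and fetal liver, differed by 0.15 ± 0.07 and 0.30 ± 0.07 and did not pass. No marker of cholangiocytes, endothelium, fibroblasts or stellate cells, macrophages or leukocytes, or kidney or neural lines was called.

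Wnt pathway genes had 3 members lower and none higher of 30, with a median of -0.09, again beside 0.248% of all features. These were APCDD1, a Wnt inhibitor at the cell surface (-0.63 ± 0.10), DKK1, a secreted Wnt inhibitor (-0.55 ± 0.10), and WNT11, a ligand (-0.51 ± 0.10). None of the 3 overlapped between the pools. Among hepatoblast and progenitor markers CLDN6 was lower and PROM1 and DLK1 higher, and 23 of 26 were not called. Over all features the share called higher was 0.292%. DLK1, a surface protein of hepatoblasts, differed by 0.49 ± 0.08.

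Enzymes that handle aldehydes and retinoids had called members in both directions, 2 of each among 28. Over all features 0.292% were called higher and 0.248% lower. ALDH8A1 and ALDH1A1 (-0.51 ± 0.09) were lower, and AKR1B10 and AKR1C3 (0.42 ± 0.08) were higher. Of the oxidative stress genes AKR1B10 and SLC7A11, a cystine importer (0.64 ± 0.09), were higher of 21. In bile acid handling BAAT, the enzyme that conjugates bile acids, was higher by 0.62 ± 0.11 of 19 genes, and among apolipoproteins APOM, which carries sphingosine-1-phosphate on HDL, was higher by 0.68 ± 0.09 of 17. The arrays of BAAT and of APOM overlapped between the pools. MAT1A, the liver enzyme that makes S-adenosylmethionine, was higher by 0.37 ± 0.07, also with overlap. Single members were called in the lists of TGF-beta and BMP (TGFBR3, 0.48 ± 0.10) and of Notch, Hedgehog and YAP targets (AJUBA, 0.38 ± 0.07). AJUBA lies among the 60 neighbouring genes of chromosome 14 described below, of which 59 were above 0. Of junction genes, CLDN2 was higher (0.43 ± 0.09) and CADM1 lower (-0.34 ± 0.07).

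The control pool gave the level without an introduced receptor. Its vehicle mean lay nearer to the TRβ1 mean than to the TRα1 mean for 73 of the 111 called features (65.8%), against 53.2% of all features. The count was 41 of the 51 features lower in the TRβ1 pool and 32 of the 60 higher ones. The higher ones include 16 neighbouring genes of chromosome 14, described below, which shifted together. Most of these 16 were among the 32, so the 32 are not separate observations. The control mean lay between both means for 68 of the 111, beyond the TRβ1 mean for 32 and beyond the TRα1 mean for 11. SERPING1, for example, was at 5.73 ± 0.22 (SD, n = 3) in the control pool, 5.86 ± 0.27 in the TRβ1 pool and 6.85 ± 0.22 in the TRα1 pool. ENPP2 had the same order, with 6.18 ± 0.15 in the control pool, 7.16 ± 0.18 in the TRβ1 pool and 8.02 ± 0.14 in the TRα1 pool. CDCA7L was at 6.56 ± 0.29 in the control pool, close to 6.47 ± 0.19 in the TRα1 pool and above 5.62 ± 0.19 in the TRβ1 pool. PROM1 was at 7.42 ± 0.09 in the control pool, 6.37 ± 0.27 in the TRβ1 pool and 5.55 ± 0.26 in the TRα1 pool.

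The same difference was measured again on the T3 arrays, which come from the same pools. The differences on T3 and on vehicle share no array. Their tests are not separate, since both came from the same model, with the spread pooled over all groups. All 111 features had the same sign on T3, against 60.9% of all features, and 108 had it in all 3 T3 pairs. On T3, 124 features were called (0.604%), 46 higher and 78 lower in the TRβ1 pool, and 71 of them were called in the same direction on vehicle. The overlap was 64.0% of the vehicle list and 57.3% of the T3 list. The pooled spread enters both lists, and a feature with a small spread is favoured in both. Their overlap is therefore not a result of separate arrays. The difference was smaller on T3 for 74 of the 111, with a median size of 0.50 in the vehicle direction. The 111 were chosen for their difference on vehicle, so smaller values on other arrays would follow from that choice alone. CLDN6 was at -1.53, SLC2A2 at -1.21, PAQR9 at 1.02 and MATN3 at 1.13 on T3. Others fell short there: RBM24 was at 0.43 (adjusted p = 0.187) and HP at -0.36 (adjusted p = 0.629). FYN, a Src family kinase chosen after its values were seen, was at -0.82 on vehicle and -1.20 on T3. In limma's test of the change itself no feature passed, whether the model held the block or not. With the block 619 reached an unadjusted p under 0.05, where 1027 would be expected by chance.

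**Figure D3:**
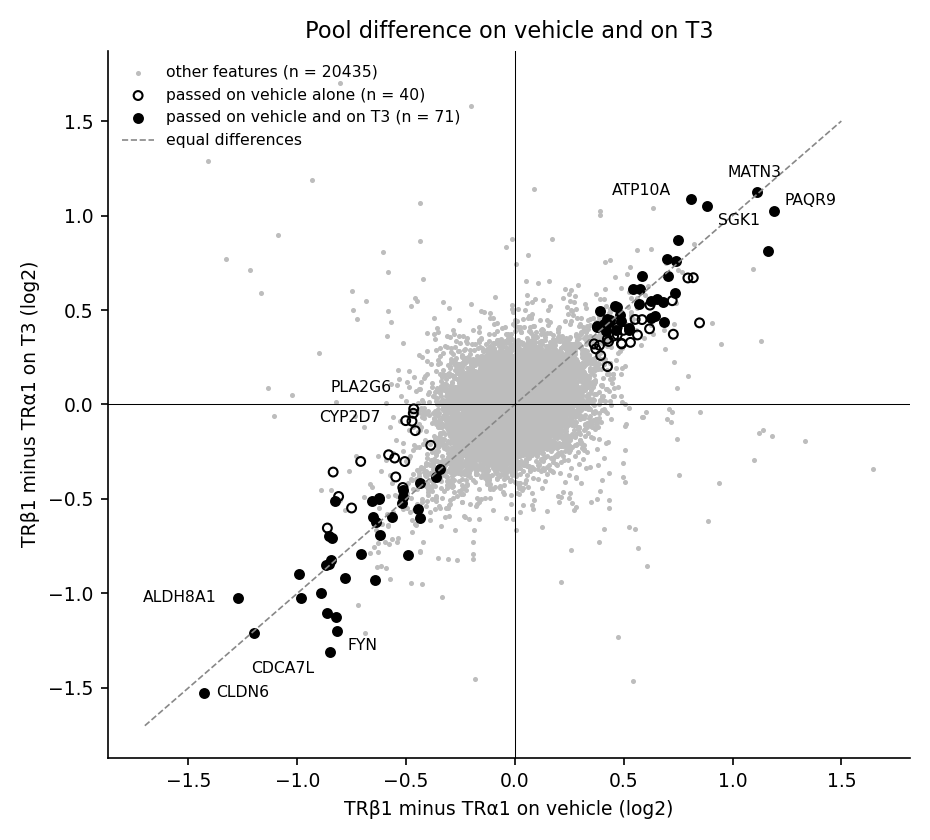
TRβ1 pool minus TRα1 pool on vehicle (log2, horizontal axis) and on T3 (log2, vertical axis), 1 point per feature, with a dashed line at equal differences. The 71 features called on both (filled) and the 40 called on vehicle alone (open) all lie in the quadrants of equal sign.

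Whether a gene that responds to T3 through the cell's own receptors differed between the pools was read on the 20 features called for T3 in the control pool, in a contrast of control arrays only (0.0973% of features). On vehicle FYN was called lower in the TRβ1 pool and no other, where 0.248% of all features were called lower. The 20 differences ran from -0.82 to 0.25 with a median of -0.07, against -0.01 over all features, and 13 were below 0.

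Chromosome 14 held the most genes called higher. It had 17 called higher and 1 called lower of 587 genes (2.90% higher, against 0.31% of all genes at 1 feature per gene). No other chromosome held more than 5 called higher. Gene order came from RefSeq (GRCh38.p14), and the measured genes with a mean level of at least 6 were cut into 472 windows of 20 neighbours. The highest medians were those of 3 adjacent windows on chromosome 14, from ABHD4 to DCAF11 at 0.34, from FITM1 to STRN3 at 0.38 and from HEATR5A to GEMIN2 at 0.40. Of their 60 genes, 59 were above 0 and 16 were called higher (26.7%, against 0.31% of all genes). The median difference over all genes was -0.01. The called ones included PRMT5, an arginine methyltransferase (0.38 ± 0.07), PSME1, an activator subunit of the proteasome (0.36 ± 0.08), IPO4, a nuclear import receptor (0.46 ± 0.07), and SNX6, a sorting nexin (0.42 ± 0.08). These genes and windows were singled out after their values were seen.

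The shift was present in each pair and on T3. The 3 window medians were 0.25, 0.35 and 0.25 in the first pair, 0.44, 0.44 and 0.42 in the second and 0.29, 0.34 and 0.49 in the last, from the first window to the last. On T3 they were 0.33, 0.36 and 0.36. Against the control pool, the TRα1 pool lay at -0.21, -0.20 and -0.30 and the TRβ1 pool at 0.07, 0.12 and 0.05. The TRα1 mean was below the control mean for 58 of the 60 genes, and the TRβ1 mean for 13. On the rest of the chromosome the lowest window medians were at -0.12. Elsewhere 3 neighbouring windows of chromosome 5 were at 0.16 to 0.17, others on chromosomes 2 and 19 at 0.11 to 0.15, and 1 on chromosome 11 at -0.11, without a gene called higher in any. All 15 windows with a median of at least 0.10 in size had the same sign on T3.

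**Figure D4:**
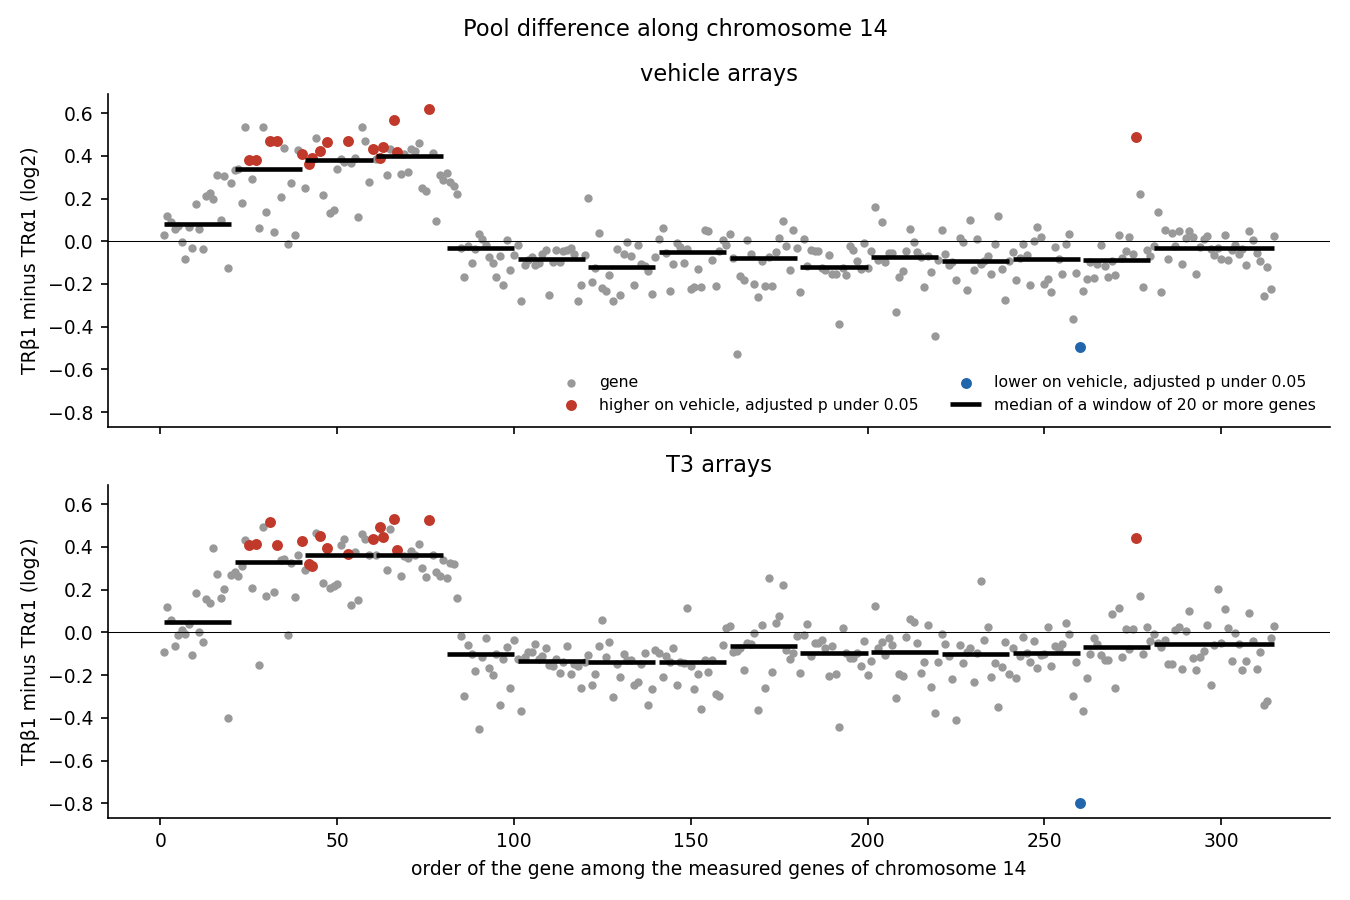
TRβ1 pool minus TRα1 pool (log2) for the measured genes of chromosome 14 in chromosome order, on vehicle (top) and on T3 (bottom), with black bars for window medians. Bars of windows 2 to 4 stand at 0.34 to 0.40 on vehicle, and the later ones lie below 0.

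**Figure D5:**
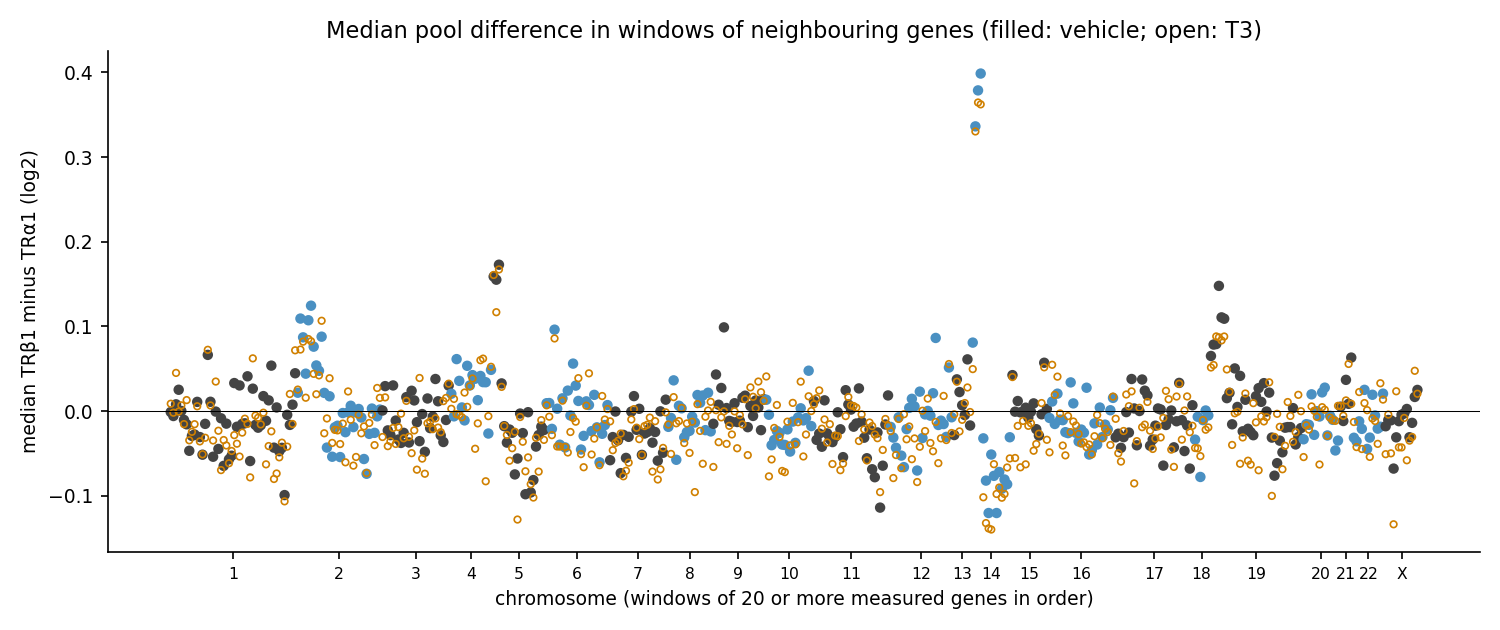
Median TRβ1 minus TRα1 difference (log2) of each of the 472 windows of neighbouring genes, by chromosome, on vehicle (filled, shade alternating by chromosome) and T3 (open). The 3 windows of chromosome 14 at 0.34 to 0.40 stand above all others, of which the highest is at 0.17.

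On chromosome 15 the features of the SNORD116 small nucleolar RNA cluster lay mostly above 0. Of 20 features with a single symbol, 19 were above 0 and SNORD116-13 was called (0.58 ± 0.11, adjusted p = 0.0310). The median was 0.39 on vehicle and 0.46 on T3. Features of the neighbouring SNORD115 cluster had a median of 0.10, with 14 of 20 above 0 and none called, at a median level of 2.01. Copies within a cluster are nearly identical, so their features may read each other's RNA, and the family was chosen after its values were seen. ATP10A, on the same chromosome, was among the largest called, whereas UBE3A and NDN differed by 0.05 and 0.06 and did not pass. Among features with several symbols, that of SNURF and SNRPN and that of SNORD109A and SNORD109B were called higher too.

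Promoter sequences were read for the called genes, from 250 bases before to 50 after the start in RefSeq (GRCh38.p14). Thyroid hormone receptors bind pairs of the half-site AGGTCA. Of the 106 called single-gene features 83 had a promoter in the table, and the half-site, on either strand (TGACCT on the other), stood in 7 (8.43%), against 11.1% of the promoters of measured genes and 13.9% of all promoters. The share was 6.38% for genes called higher and 11.1% for those called lower. A pair of half-sites spaced by 4 bases occurred in none of the 83 and in 5 of all 27305 promoters. Below are 4 of the 7, shown because their genes are described above, with the half-site in capitals, 5′ to 3′ on the strand of the gene. They lie at chr6:43298010-43298309 (plus strand), chr7:21945850-21946149 (minus), chr3:52830623-52830922 (minus) and chrX:106899914-106900213 (plus), in that order, and a match is no evidence of binding.
SLC22A7: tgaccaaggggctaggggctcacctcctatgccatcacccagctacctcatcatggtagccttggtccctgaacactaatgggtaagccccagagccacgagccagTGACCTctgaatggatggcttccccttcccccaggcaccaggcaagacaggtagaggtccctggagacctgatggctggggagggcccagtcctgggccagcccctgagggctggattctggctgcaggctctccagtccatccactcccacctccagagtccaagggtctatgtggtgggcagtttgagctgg
CDCA7L: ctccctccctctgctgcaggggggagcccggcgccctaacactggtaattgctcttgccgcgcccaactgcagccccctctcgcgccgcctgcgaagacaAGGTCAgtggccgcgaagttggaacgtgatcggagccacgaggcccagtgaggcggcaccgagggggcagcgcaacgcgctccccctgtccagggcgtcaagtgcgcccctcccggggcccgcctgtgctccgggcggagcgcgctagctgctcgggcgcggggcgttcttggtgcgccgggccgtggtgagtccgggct
ITIH4: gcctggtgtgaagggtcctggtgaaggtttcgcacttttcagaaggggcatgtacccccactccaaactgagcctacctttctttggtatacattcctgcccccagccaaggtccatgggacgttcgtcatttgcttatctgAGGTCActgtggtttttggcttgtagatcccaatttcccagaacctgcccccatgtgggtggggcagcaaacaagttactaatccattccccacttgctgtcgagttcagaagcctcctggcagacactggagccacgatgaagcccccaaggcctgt
CLDN2: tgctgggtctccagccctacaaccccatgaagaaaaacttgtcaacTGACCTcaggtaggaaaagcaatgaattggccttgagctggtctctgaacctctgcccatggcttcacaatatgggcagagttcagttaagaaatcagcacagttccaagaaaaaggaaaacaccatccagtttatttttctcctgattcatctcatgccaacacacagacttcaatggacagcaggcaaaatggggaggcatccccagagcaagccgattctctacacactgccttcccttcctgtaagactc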

How the data were processed

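RNA from 18 HepG2 samples was hybridised to single-colour Affymetrix gene arrays, and each group had 3 arrays. The values the authors deposited are log2 expression per feature, and the submitters' processing notes list RMA and R 2.7.1. The genome build was not given in the sources used here. The table held 32321 features, of which 19158 carried 1 gene symbol in the platform annotation, 1388 several and 11775 none. The 20546 with a symbol were tested, and no gene was named from a feature with several, apart from SNURF, SNRPN, SNORD109A and SNORD109B. Array medians lay between 5.31 and 5.49. The number of arrays limits the precision. With the block, p-values measure the spread left after shifts shared by a replicate number are taken out, pooled over all groups.

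A linear model with 6 groups over all 18 arrays and the replicate number as a block was fitted with limma 3.58.1 in R 4.3.3, with two-sided p-values adjusted by Benjamini-Hochberg at 0.05. The titles give the numbers. After group means were subtracted, all 45 pairs of arrays with the same number correlated at 0.259 to 0.816 across features, whereas the 90 pairs with different numbers ran from -0.654 to 0.455 with a median of -0.483, so the ranges overlapped. With group means subtracted, positive correlations of same-numbered arrays push those of the other pairs below 0, so the negative median is not separate evidence. From the correlations of the same-numbered arrays, the numbers were taken as pairing the arrays. The median SE was 0.107 with the block and 0.157 without. Simulated data had 200 changed features among 20546 and were built with replicate effects, so they do not test the block itself. On them the fit with the block recovered 97% of changes of 1 log2 unit and 72% of those of 0.6. Without the block the fit recovered 73% and 23%.

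Named genes were up to 15 higher and 15 lower by size among called single-gene features with the same sign in 3 pairs, THRA and THRB, and up to 4 called members of each list. A gene with more than 1 feature was represented by the one with the highest mean level. Members and lists were chosen with earlier results of these data known. Gene order, chromosomes and promoters came from RefSeq.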

Additional observations from a re-analysis of the deposited data

How the results depend on the processing

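Every named gene and each called feature that was tested kept its direction under all the alternatives. For many alternatives this was fixed in advance. Each group holds every replicate number, so changing the block, the variance model, the features or the other groups leaves the vehicle differences as they are. All 111 called features had the same sign in the 3 pairs, so leaving out a replicate number could not reverse them. Calls depended on the replicate block: without it 0 features, 0 named genes and 0 list members passed (111, 49 and 27 with it), and 8 of the called features passed on T3 (71 with it), or 0 and 3 when the first replicate was also left out, an alternative chosen after seeing the data. As a random block the number gave 84 features, and 47 on T3. With fewer arrays in the fit, the 6 vehicle arrays gave 20 features, 13 named genes and 3 list members, and the 9 vehicle arrays gave 32, 25 and 10. Array weights gave 221 features and 49 list members, and a trended robust variance 172 features. Over all 32321 features there were 60, with 28 named genes, 13 list members and 42 on T3. The cause was not tested. With an array or a replicate number left out, features ranged from 1 to 86, named genes from 1 to 33, list members from 0 to 19, T3 calls from 7 to 66 and changes with T3 from 0 to 1. The count nearer to the TRβ1 pool was 73 of 111 in the main fit. It was lower under the filter at a mean of 5.5, where 87 of the 111 features were tested. The chromosome 14 median ran from 0.34 to 0.40 over the alternatives. A filter at a mean of 5.5 gave 153 features and left 42 of the 51 named genes in the test. With 3 arrays per group, differences near the median SE cannot be told from none.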
